A study of Mus musculus with 6 samples.

Results

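Regions of open chromatin that were partly lost in Utx knockout bone marrow progenitors are those with an ATAC-seq peak in all 3 wild-type samples and in exactly 1 or 2 of the 3 knockout samples. Overlapping peaks of the 6 samples (1 bp or more in common) gave 75961 merged regions, of which 46356 had a peak in all 3 wild-type samples and 7155 met this rule. The partly lost regions made up 15.4% of the regions common to the wild-type samples and 9.42% of all regions. The members were chosen by the presence of peaks in knockout and wild-type samples, so presence and peak width in either genotype are given as descriptions, with no test. Position in the genome and sequence did not enter the rule.

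The samples were 3 of genotype UTX_KO (KO1, KO2 and KO3) and 3 of genotype UTX_WT (WT1, WT2 and WT3), all from lineage-depleted (Lin-) bone marrow of the C57BL/6 strain. ATAC-seq uses a transposase to insert sequencing adapters into accessible DNA, and each sample was represented by its own list of peak positions without scores or read counts. The study compared mice without the histone demethylase UTX with wild-type mice. The labels do not give the way Utx was deleted, the age or sex of the mice, or whether samples came from separate animals, so any spread between samples may be technical. The knockout lists held 44576 to 50249 peaks and the wild-type lists 57405 to 57917 peaks. The number of reads behind them is unknown. Lineage depletion removes cells with mature blood markers by antibody, and what remains is a mixture of stem cells and committed progenitors. A region seen in fewer cells and a region less open in each cell cannot be told apart in such bulk samples. The regions in all 3 wild-type samples included 200 within 20 kb of GATA factor and erythroid genes, 102 near stem cell genes and 90 near granulocyte and monocyte genes, beside 22 near stroma and endothelium genes. These lists hold 30, 18, 20 and 10 genes, so the counts do not measure the share of each cell type. The gene for UTX, Kdm6a, had 4 such regions, of which 1 was partly lost, but a peak in the gene does not show whether its deleted part is present.

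UTX is a histone H3 lysine 27 demethylase and a subunit of the COMPASS-like complexes that carry the MLL3 and MLL4 methyltransferases and act at enhancers. Peak callers report a region only when its signal passes a threshold, so a weakly open site can appear in some samples of a group and be absent from others. GATA1 and GATA2, ETS proteins such as PU.1, and RUNX1 are among the DNA-binding proteins known to act at open chromatin in blood progenitors.

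Among the partly lost regions, a small group was at least 1000 bp wide in wild type, and several of these covered the start of a gene. The promoter sequences of 5 of those genes are shown because the peaks that remained in knockout samples lay at the start in Aqp1, Ackr1 and Hemgn, beside it in Sptb, and away from it in Sphk1. Aqp1 encodes a water channel of the red cell membrane, Ackr1 the atypical chemokine receptor that carries the Duffy blood group in humans, Hemgn the nuclear protein hemogen, Sptb beta-spectrin of the red cell skeleton, and Sphk1 a sphingosine kinase. Each sequence is the RefSeq window of 250 bases before to 50 bases after the annotated start (GRCm38.p6, the assembly also known as mm10), written 5′ to 3′ on the gene's strand. Capitals mark the words AGATAA or TGATAA, which GATA factors are known to bind, or their reverse complements TTATCT and TTATCA. The windows are chr6:55336049-55336348 on the plus strand for Aqp1, chr1:173333454-173333753 on the minus strand for Ackr1, chr4:46404134-46404433 on the minus strand for Hemgn, chr12:76710498-76710797 on the minus strand for Sptb and chr11:116532194-116532493 on the plus strand for Sphk1.
Aqp1: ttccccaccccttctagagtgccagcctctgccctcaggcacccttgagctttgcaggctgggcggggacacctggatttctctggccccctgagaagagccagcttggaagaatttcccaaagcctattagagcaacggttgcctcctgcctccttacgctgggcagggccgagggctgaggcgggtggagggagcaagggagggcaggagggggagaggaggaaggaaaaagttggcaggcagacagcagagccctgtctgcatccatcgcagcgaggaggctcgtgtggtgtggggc
Ackr1: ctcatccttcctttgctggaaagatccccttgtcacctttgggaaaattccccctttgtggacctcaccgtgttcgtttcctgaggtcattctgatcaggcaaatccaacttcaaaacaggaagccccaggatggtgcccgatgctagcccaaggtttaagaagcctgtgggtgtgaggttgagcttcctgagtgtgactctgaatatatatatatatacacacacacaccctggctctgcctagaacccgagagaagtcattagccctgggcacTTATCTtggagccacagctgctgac
Hemgn: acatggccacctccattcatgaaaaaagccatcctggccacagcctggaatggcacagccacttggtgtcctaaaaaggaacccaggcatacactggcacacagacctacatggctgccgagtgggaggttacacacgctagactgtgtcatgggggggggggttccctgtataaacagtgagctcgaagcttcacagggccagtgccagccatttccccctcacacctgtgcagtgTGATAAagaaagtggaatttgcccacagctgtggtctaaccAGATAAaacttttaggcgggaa
Sptb: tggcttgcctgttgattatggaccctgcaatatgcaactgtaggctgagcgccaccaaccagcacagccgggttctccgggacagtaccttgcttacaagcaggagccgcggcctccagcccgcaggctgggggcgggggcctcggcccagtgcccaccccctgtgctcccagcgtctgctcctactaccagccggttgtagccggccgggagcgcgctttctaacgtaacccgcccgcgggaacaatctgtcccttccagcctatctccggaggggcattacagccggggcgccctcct
Sphk1: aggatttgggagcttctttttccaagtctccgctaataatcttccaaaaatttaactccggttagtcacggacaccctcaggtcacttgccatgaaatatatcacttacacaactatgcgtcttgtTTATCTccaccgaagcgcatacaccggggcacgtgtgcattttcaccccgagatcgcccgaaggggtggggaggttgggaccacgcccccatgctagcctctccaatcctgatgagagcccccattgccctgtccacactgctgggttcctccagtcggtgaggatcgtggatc
Of these windows, those of Aqp1 and Sptb held no GATA word, and those of Ackr1, Hemgn and Sphk1 held 1, 2 and 1. The windows read for the other promoter regions named by rule, at Tfr2, Parvb and Htr2a, are not printed and held no GATA word. The word in Ackr1 began 25 bases after the annotated start, and those in Hemgn 13 bases before and 28 bases after it. The GC content was 62.7% for Aqp1, 50% for Ackr1, 53% for Hemgn, 65.7% for Sptb and 53% for Sphk1. A match is a description of the letters and not evidence of binding.

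The region at Aqp1, chr6:55335867-55340104, was the widest of all partly lost regions in wild type. Its peaks covered 0, 0 and 203 bp in KO1, KO2 and KO3, against 3556, 4026 and 4238 bp in WT1, WT2 and WT3. The single knockout peak, chr6:55336208-55336410 in KO3, covered the annotated start shown above and was 5.15% of the wild-type mean of 3940 ± 349 bp (SD, n = 3). No knockout value came near a wild-type value, and the remainder of the wild-type region, which ran into the gene, had no knockout peak. Of the other 6 regions within 20 kb of Aqp1 that were in all 3 wild-type samples, 5 had no peak in any knockout sample.

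Ackr1 showed the same arrangement. The region chr1:173332054-173334443 had 0, 212 and 0 bp in KO1, KO2 and KO3, against 1435, 1656 and 2390 bp in WT1, WT2 and WT3. The 212 bp peak of KO2 covered the annotated start and the GATA word in the printed promoter. All 6 regions within 20 kb of Ackr1 that wild-type samples shared were affected, 3 as partly lost and 3 as lost from all knockout samples. At Hemgn, chr4:46403450-46404926 had 340, 448 and 0 bp in KO1, KO2 and KO3, against 1352, 1462 and 1397 bp in WT1, WT2 and WT3. The KO1 peak covered the Hemgn start and both GATA words, whereas the KO2 peak began 5 bp from the start and covered 1 of the words. Both knockout peaks were narrower than the narrowest wild-type peak.

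In Sptb the knockout peaks stopped short of the annotated start. The region chr12:76709183-76710899 had 425, 346 and 0 bp in KO1, KO2 and KO3, against 1633, 1299 and 1460 bp in WT1, WT2 and WT3, with the knockout peaks 112 and 202 bp from the start. At Sphk1, chr11:116531906-116534956 had 360, 808 and 0 bp in KO1, KO2 and KO3, against 2847, 3051 and 2970 bp in WT1, WT2 and WT3. The Sphk1 remnants lay 553 to 1739 bp from the start, and the GATA word in its printed promoter was outside each of them. These 5 genes were shown for the different places of their knockout peaks, so that difference is not a result. At the other promoter regions named by rule, the knockout peaks lay over a start in Tfr2. They lay 625 and 622 bp from it in Parvb and 925 and 203 bp from it in Htr2a (KO1 and KO2). KO3 had no peak in Hemgn, Sptb or Sphk1.

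Further wide regions lay at Alad, Tfr2, Slc14a1 and Ache. Alad encodes the delta-aminolevulinate dehydratase of haem synthesis, and chr4:62515280-62518080 inside it had 0, 219 and 0 bp in KO1, KO2 and KO3, against 2574, 2634 and 2643 bp in WT1, WT2 and WT3. Tfr2 encodes the second transferrin receptor, and chr5:137569623-137571530 had 0, 623 and 0 bp in the knockout samples, against 1595, 1596 and 1908 bp in wild type. The 623 bp of KO2 were 2 separate peaks, each over an annotated transcript start of Tfr2. Each was the only wide one among the 2 partly lost regions within 20 kb of its gene, and Alad also had 2 lost regions whereas Tfr2 had none.

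Slc14a1 encodes the urea transporter of red cells, and a region inside it on chromosome 18 had 292, 302 and 0 bp in KO1, KO2 and KO3, against 1845, 2290 and 2174 bp in WT1, WT2 and WT3. Ache encodes acetylcholinesterase, which red cells carry on their surface, and chr5:137289001-137291177 had 207, 0 and 201 bp in KO1, KO2 and KO3, against 2078, 1846 and 2158 bp in WT1, WT2 and WT3. It was among the few wide regions in which KO2, the longest knockout list, had no peak while KO1 and KO3 had one: 5 of the 124 wide regions had that pattern.

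A wide region inside Mpo, which encodes the myeloperoxidase of neutrophil granules, was among the widest as well. This region, chr11:87798758-87801705, had 752, 266 and 0 bp in KO1, KO2 and KO3, against 2713, 2824 and 1598 bp in WT1, WT2 and WT3. The KO1 value was made of peaks of 553 and 199 bp, and the wild-type values were spread widely (2378 ± 678 bp, SD, n = 3). The other regions taken for their width or for a low knockout to wild-type ratio were nearest to Paqr9, Lhfpl2, Agpat4, Tmem184a, Wapl, Vps13d, Parvb and Syngr1, and a promoter region at Htr2a was taken as well. Across these 9 genes the mean wild-type width ran from 1477 bp at Htr2a to 2508 bp at Paqr9, and the width left in knockout samples with a peak from 202 bp at Syngr1 to 614 bp at Wapl. Their ratios ran from 0.0869 at Paqr9 to 0.294 at Wapl. This lies within the range of the named regions described singly above, from 0.0515 at Aqp1 to 0.367 at Tfr2. In each of the 19 named regions, every knockout value was below every wild-type value, which the rule and the choice by width and ratio favour.

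**Figure D1:**
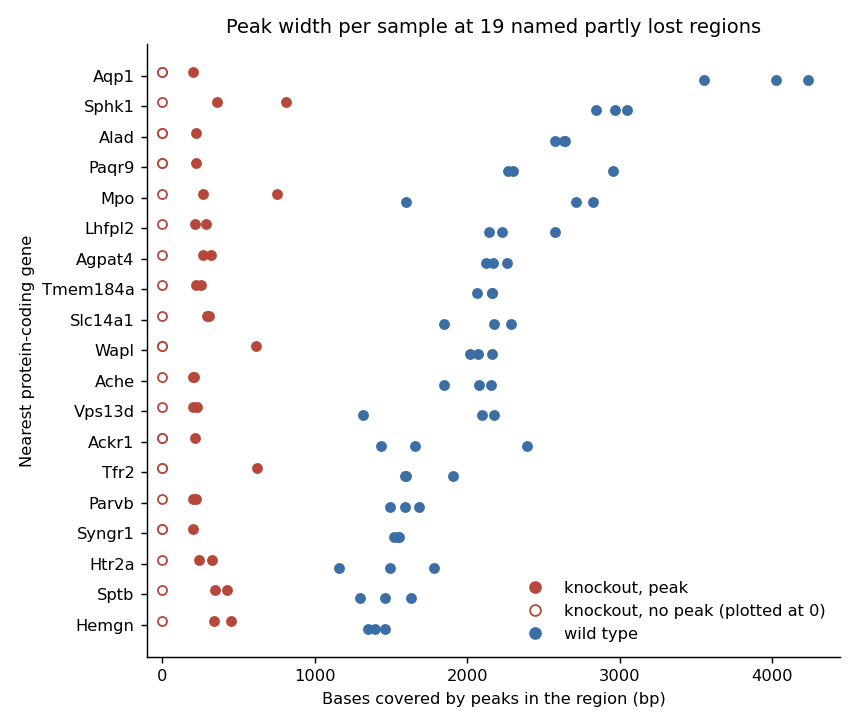
Bases covered by peaks (bp, horizontal axis) in each sample at 19 partly lost regions named by rule, labelled by the nearest protein-coding gene. Filled red points are knockout samples with a peak, open red points knockout samples without one, and blue points wild-type samples; knockout points do not exceed 808 bp, and wild-type points start at 1158 bp.

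Regions of this size were rare among the partly lost. Of the 7155, 124 (1.73%) had a mean wild-type width of at least 1000 bp, against 224 of 8042 lost regions (2.79%) and 7433 of 31159 regions present in all 6 samples (23.9%). The count of wide regions was 61 without KO3, where the rule narrows to exactly 1 of the 2 others, 218 with the widest 50% of each list and 513 where peaks had to cover 50% of a region. At the 124 wide regions the knockout samples that kept a peak had a median of 0.239 of the wild-type width, with a range of 0.0515 to 0.693, and in 118 regions they had less than 0.5 of it. The knockout signal at these places consisted of 214 peaks with a median of 287.5 bp, of which 120 (56.1%) were shorter than 300 bp. In the central 50% of the region lay 108 (50.5%), close to the share that even placement would give. KO1 had a peak in 73 of the 124, KO2 in 92 and KO3 in 31. At the other end of the range, the region with the highest ratio, inside Serpinb6b, a serine protease inhibitor gene, had 968, 749 and 0 bp in KO1, KO2 and KO3, against 1174, 1241 and 1303 bp in WT1, WT2 and WT3. A region about 20 kb from Cbfa2t3, a corepressor gene active in blood cells, had 1178, 1216 and 0 bp in the knockout samples, against 1864, 2037 and 2078 bp in wild type. These last 2 regions were chosen after their values were seen.

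The typical partly lost region was narrow. The median peak width over the partly lost regions was 260, 266 and 251 bp in KO1, KO2 and KO3, taken where a peak was present, against 332, 324 and 314 bp in WT1, WT2 and WT3. The group means were 259 ± 7.55 bp in knockout and 323 ± 9.02 bp in wild type (SD, n = 3 each). The ranges of the samples did not overlap, which the rule favours. A total of 5334 regions (74.5%) were under 400 bp in wild type. Regions present in all 6 samples had medians of 562 ± 24.7 bp in knockout and 584 ± 6.66 bp in wild type (SD, n = 3 each). There the sample ranges overlapped, at 545 to 590 bp in knockout and 580 to 592 bp in wild type. Where a knockout peak remained, its width was a median of 0.808 of the wild-type width at partly lost regions, against 0.934 at regions in all 6 samples.

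The number of knockout samples with a peak ordered the regions only in part. The median wild-type width was 360 bp for regions with no knockout peak, 311 bp with 1, 333 bp with 2 and 584 bp with 3. The regions with 1 knockout peak (3204, 6.91% of those in all 3 wild-type samples) and with 2 (3951, 8.52%) were therefore narrower than regions on either side of the rule, the 8042 lost regions (17.3%) and the 31159 kept ones (67.2%). The interquartile ranges, 271 to 390 bp with 1 knockout peak and 288 to 411 bp with 2, both overlapped that of lost regions (285 to 500 bp). That of kept regions, 401 to 975 bp, overlapped the range with 2 knockout peaks but not the range with 1.

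The share of partly lost regions differed with the width in wild type. Of the regions under 300 bp, 37.3% were partly lost, and the share was 25.2% at 300 to under 400 bp, 10.6% at 400 to under 600 bp, 4.98% at 600 to under 1000 bp and 1.59% at 1000 bp and over. The share of lost regions was 34.6%, 21.1%, 17.8%, 11.3% and 2.88% in the same bands. Among regions missing from at least 1 knockout sample, the partly lost were 51.8% and 54.4% in the narrowest bands and 37.4%, 30.6% and 35.6% in the wider ones. The width left in knockout samples also changed with the band: its median ratio to wild type was 0.919, 0.786, 0.632, 0.427 and 0.239 at partly lost regions, against 1.08, 0.941, 0.914, 0.931 and 0.926 at kept ones. Narrow partly lost regions thus had knockout peaks of nearly wild-type width, and wide ones had a short stretch of the wild-type peak. The shortest peak in every sample was 199 bp, which bars a low ratio at narrow regions. Its part in the change of the ratio with width was not tested.

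**Figure D2:**
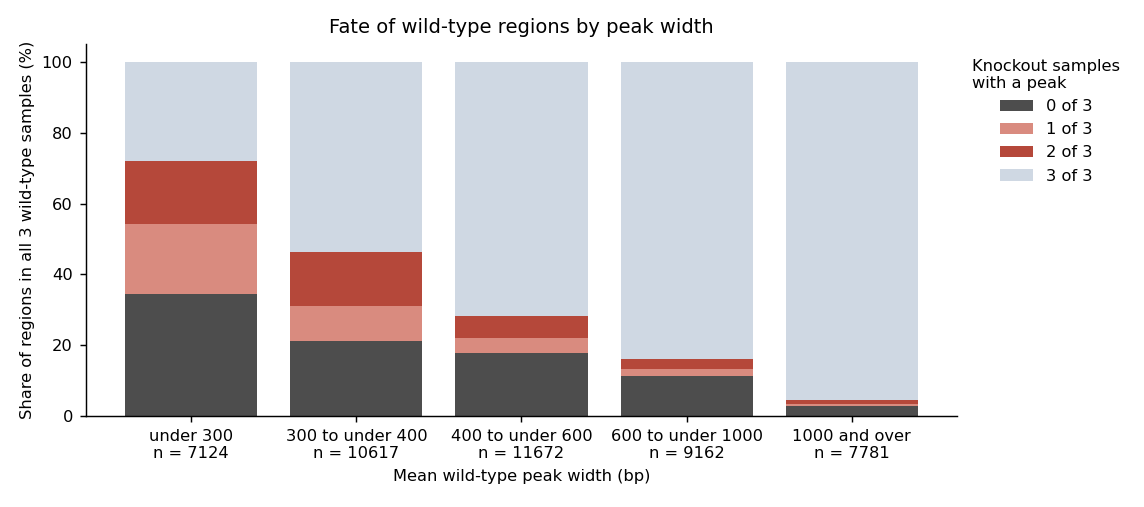
Share (%, vertical axis) of the regions common to all 3 wild-type samples that had a peak in 0, 1, 2 or 3 knockout samples, by mean wild-type peak width in bp. The light and dark red parts, with 1 and 2 knockout samples, are the partly lost regions and make up 37.3% of the narrowest band and 1.59% of the widest.

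A narrow region can also be missed by a wild-type sample. For regions with a peak in any 2 wild-type samples, the share without one was compared between each knockout sample and the third wild-type sample. Over all widths, 27.7 ± 3.84% lacked a peak in a knockout sample and 6.17 ± 1.40% in the third wild-type sample (SD, n = 3 each). Under 300 bp the shares were 57.8 ± 7.49% for knockout and 22.9 ± 4.77% for wild type, and at 300 to under 400 bp 34.9 ± 6.26% for knockout and 5.90 ± 1.47% for wild type. At 400 to under 600 bp they were 23.2 ± 2.77% for knockout and 1.48 ± 0.534% for wild type, and at 1000 bp and over 3.84 ± 0.422% for knockout and 0.0168 ± 0.0292% for wild type. From 600 to under 1000 bp the knockout samples lay between 12.3% and 15.3% and the wild-type samples between 0.120% and 0.432%. A wild-type sample missed a narrow region often and a wide one almost never, while knockout samples missed more in every band and their values did not overlap those of the wild type in any. The shorter knockout lists move with this difference, and their part in it was not tested.

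**Figure D3:**
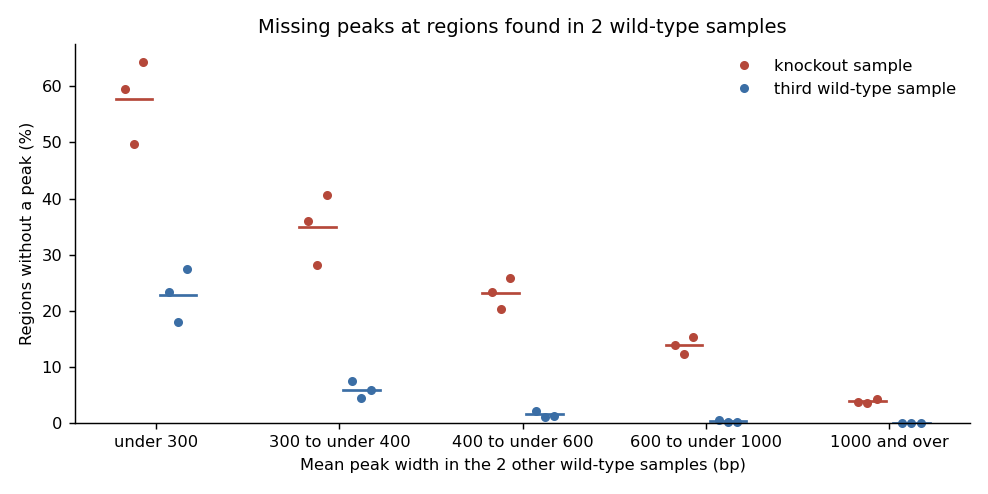
Share of regions (%, vertical axis) found in 2 wild-type samples that lacked a peak in each knockout sample (red) or in the third wild-type sample (blue), by the mean peak width in those 2 samples (bp). Points are samples and lines their means; red points lie above blue ones in every band, and the means at 1000 bp and over are 3.84% and 0.0168%.

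The knockout samples contributed unequally. KO1 had a peak in 3454 of the 7155 partly lost regions (48.3%), KO2 in 5556 (77.7%) and KO3 in 2096 (29.3%), which follows the order of their list lengths of 45260, 50249 and 44576 peaks. KO1 and KO2 together, without KO3, made up the most common pattern with 2252 regions, followed by KO2 alone with 1941 and KO2 with KO3 with 1363. KO1 alone held 866, KO3 alone 397 and KO1 with KO3 336. Patterns that include KO2 therefore made up most of the set, and whether this came from the animals or from the libraries was not tested. Without KO3, counting regions in exactly 1 of the 2 other knockout samples, 4512 were partly lost. Near misses were few: of the 10359 absences of a knockout peak, 473 (4.57%) had a peak of that sample within 500 bp of the region.

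**Figure D4:**
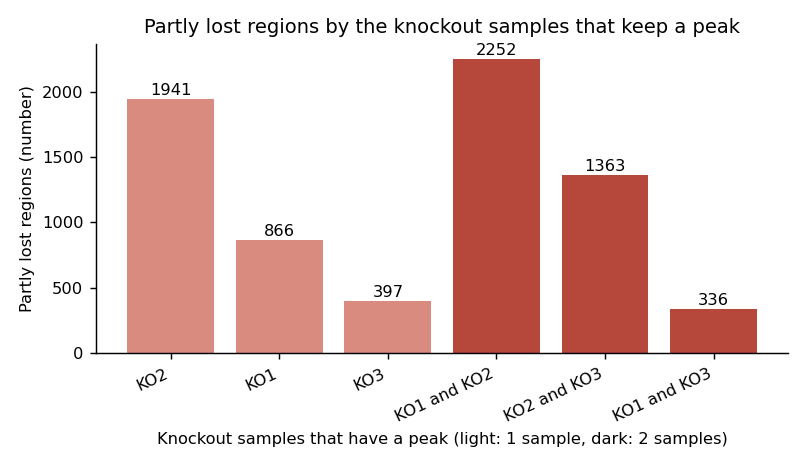
Number of partly lost regions (vertical axis) for each set of knockout samples that has a peak, with 1 such sample in light red and 2 in dark red. The tallest bars are KO1 with KO2 at 2252 regions and KO2 alone at 1941, and the shortest is KO1 with KO3 at 336.

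The opposite pattern, a peak in all 3 knockout samples and in 1 or 2 wild-type samples, occurred at 2360 of 37085 regions (6.36%). With the 44576 widest peaks of every sample, the order turned round, with 3427 regions partly lost and 3694 partly gained. This setting makes the lists equally long and also removes narrow peaks, mostly from wild type, and the part of each was not tested. Of the 7155 partly lost regions, 3085 (43.1%) were still partly lost with lists of equal length, 314 (4.39%) were lost, and 3591 (50.2%) were no longer in all 3 wild-type samples. Of the 124 wide regions, 114 remained partly lost and the other 10 were lost from all knockout samples. Since the widest peaks are the ones kept, the presence of these regions in wild type was fixed by that choice. Wide regions with the opposite pattern, at least 1000 bp in knockout, numbered 90 with full lists and 110 with equal ones, beside 124 and 120 wide partly lost regions, which were at least 1000 bp in wild type.

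By position, the partly lost regions lay away from gene ends. Of the 7155, 660 (9.22%, 95% Wilson interval 8.58 to 9.92) were within 1 kb of an annotated end of a protein-coding gene, against 6.78% of lost regions and 34.2% of kept regions. Inside genes lay 4125 (57.7%), against 62.3% of lost and 69.1% of kept regions. The share at gene ends was 8.46% with 1 knockout peak and 9.85% with 2. Since wide regions lie at gene ends more often, the shares were also compared within bands. In the bands under 300 bp and 300 to under 400 bp the shares for partly lost (7.04% and 9.52%) were close to those for kept regions (8.25% and 9.74%), with overlapping intervals. From 400 bp up they stayed at 11.7%, 10.7% and 19.4% for partly lost regions, against 16.5%, 42.6% and 71.0% for kept ones. The lost regions had 6.99%, 8.49% and 17.4% in these wider bands. Neighbouring regions are not independent, so all intervals over regions cover counting error only.

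The wide partly lost regions were often near lost ones. A region lost from all knockout samples lay within 20 kb of 79 of the 124 (63.7%, 95% Wilson interval 55.0 to 71.6), against 31.9% of kept regions of that width and 62.5% of lost regions of that width. Over all widths the share was 30.8% for partly lost, 44.6% for lost and 26.4% for kept regions. By chromosome, the partly lost share of the regions in all 3 wild-type samples ran from 13.3% on the X chromosome to 16.5% on chromosome 11, and 0 of the 4 regions on the Y chromosome were partly lost.

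Over all protein-coding genes, 14.8% of the regions within 20 kb that the wild-type samples shared were partly lost, and the genes named next were taken as the highest counts or shares among all genes. Ptpre, a receptor-type tyrosine phosphatase gene, had the most, with 10 of 32 such regions (31.3%). Foxp1 and Nfia, both transcription factor genes, had 8 of 39 (20.5%) and 8 of 30 (26.7%). In Foxp1 each of the 8 had a peak in exactly 2 knockout samples and a wild-type width of 242 to 365 bp, and all lay inside the gene. In Nfia the widths were 303 to 609 bp, and 10 further regions were lost. The widest partly lost region of Ptpre had 357, 0 and 238 bp in KO1, KO2 and KO3, against 690, 960 and 1701 bp in WT1, WT2 and WT3. Among genes with at least 8 such regions the highest share was at Crispld2, which encodes a secreted protein, with 6 of 9 (66.7%). These 6 had wild-type widths of 269 to 336 bp, and 5 of them had a peak in KO2.

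Apart from Bach2, the blood transcription factor and cofactor genes named below had 0 to 4 partly lost regions each. They are to be read against the 14.8% of regions near any protein-coding gene. Bach2, on the AP-1 and immediate early list, had 7 of 21 (33.3%), whereas that list as a whole had 12 of 89 (13.5%). Gata1, the erythroid master regulator, had none among its 5 regions in all 3 wild-type samples, of which 4 were lost. Gata2, a GATA factor of stem and mast cells, had 1 of 4, with 390, 349 and 0 bp in KO1, KO2 and KO3, against 535, 483 and 456 bp in WT1, WT2 and WT3. Gata3, a T cell factor also present in stem cells, had 3 of 4, of which the widest had 411, 307 and 0 bp in the knockout samples, against 618, 680 and 530 bp in wild type. Of the ETS family, Spi1, which encodes PU.1, had 2 of 10, Erg 2 of 20, Fli1 2 of 14 and Ets1 0 of 11. At Erg both members were as wide in knockout as in wild type where a peak was present, with ratios of 1.10 and 0.955. At Zfpm1, which encodes the GATA1 cofactor FOG1, 4 of 23 were partly lost and 13 lost. The widest at Zfpm1 had 0, 199 and 0 bp in KO1, KO2 and KO3, against 813, 1160 and 1015 bp in WT1, WT2 and WT3. At Kdm6a itself the partly lost region, inside the gene, had 306, 223 and 0 bp in the knockout samples, against 268, 440 and 467 bp in wild type, so that the KO1 value lay above the lowest wild-type value.

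For 17 gene lists, the partly lost share of the regions within 20 kb that all 3 wild-type samples had was read against 14.8%, the share over 39048 such regions near any protein-coding gene (5766 partly lost). The lists were chosen with earlier results of these data known, so their shares are descriptions and not independent support. The share ran from 11.1% to 32.5% over the lists, and the intervals of 16 of the 17 included that background. For the same lists the share of fully lost regions, 17% over all, ran from 2.25% near AP-1 and immediate early genes to 43.5% near GATA factors and erythroid genes, and only 9 intervals included the background. Near GATA factors and erythroid genes 28 of 200 regions were partly lost (14.0%, 95% Wilson interval 9.87 to 19.5). Leaving out a knockout sample, which narrows the rule to exactly 1 of the 2 others, gave 13% without KO1, 9% without KO2 and 6% without KO3 for this list, where the share over all regions was 10.6%, 10.5% and 9.72%.

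Of the 48 regions of the GATA factor and erythroid list that were at least 1000 bp wide, 4 were partly lost (8.33%, 95% Wilson interval 3.29 to 19.6) and 17 lost (35.4%), against 113 (1.53%) and 205 (2.77%) of 7404 over all protein-coding genes. This difference is a description too, since the list was chosen with earlier results known. Rhag, an ammonium transporter of the red cell membrane, and Tfrc, the transferrin receptor, had 3 partly lost regions each, all under 1000 bp in mean wild-type width. The widest at Rhag had 0, 272 and 0 bp in KO1, KO2 and KO3, against 902, 852 and 1050 bp in WT1, WT2 and WT3. No other list had more than 1 wide partly lost region, and the lists that had 1 were granulocyte and monocyte, dendritic cell, and SWI/SNF genes.

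The list whose interval did not include the background was that of mast cell and basophil genes, where 13 of 40 regions were partly lost (32.5%, 95% Wilson interval 20.1 to 48.0) and 5 lost. These regions were narrow, with a median wild-type width of 342 bp and none above 491 bp, and 10 of the 13 had a peak in KO2 but 1 in KO3. Ms4a2, the beta chain of the high-affinity IgE receptor, had 3 of 5, Mcpt8, a basophil protease, 2 of 4, and Il1rl1, the interleukin-33 receptor, 2 of 6. At Mcpt8 a region inside the gene and within 1 kb of its end had 226, 325 and 0 bp in KO1, KO2 and KO3, against 325, 416 and 392 bp in WT1, WT2 and WT3. Here the KO2 value was as high as the lowest wild-type value. Under the same narrower rule the share was 22.5% without KO1 or without KO2 and 20% without KO3. The next highest share was near stroma and endothelium genes, with 6 of 22 (27.3%, 95% Wilson interval 13.2 to 48.2). The regions of both lists were narrower than average, with median wild-type widths of 402 bp for mast cell and basophil genes and 384 bp for stroma and endothelium genes, beside 492 bp near all protein-coding genes. Narrow regions were more often partly lost, and the part of width in these shares was not tested. The number of mast cells and basophils in each sample was not measured.

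**Figure D5:**
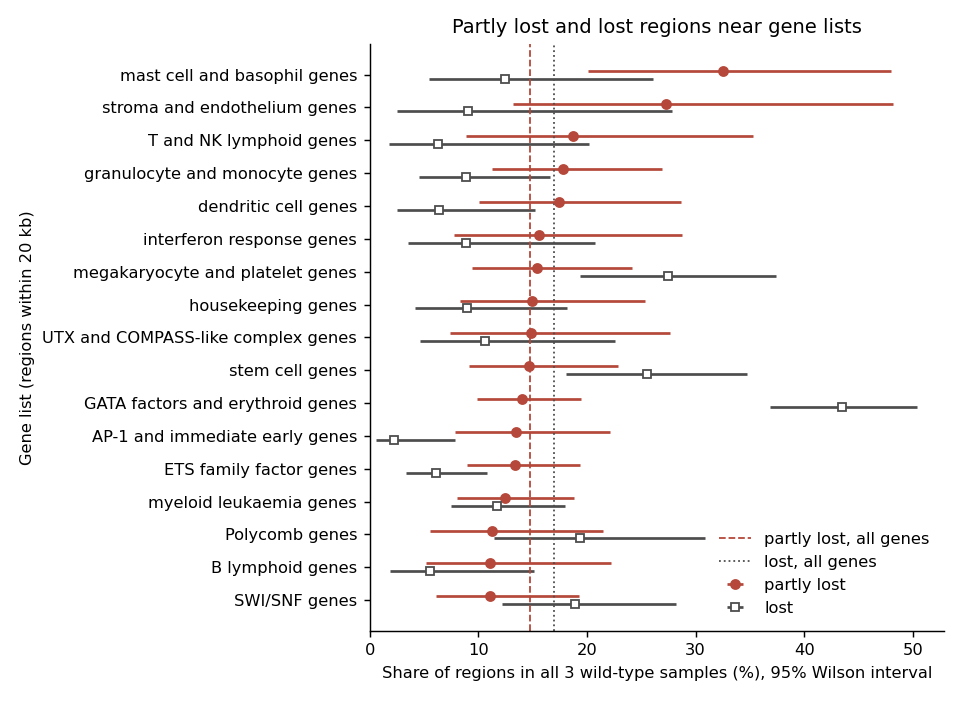
Share (%) of regions common to the wild-type samples within 20 kb of the genes of 17 lists that were partly lost (red) or lost from all knockout samples (open squares), with 95% Wilson intervals that cover counting error only. The lists were chosen with earlier results of these data known. Vertical lines give the shares near all protein-coding genes, 14.8% and 17%; the red points lie between 11.1% and 32.5% and the squares between 2.25% and 43.5%.

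Promoter sequence could be read for a minority of the regions. Of the 7155 partly lost regions, 316 (4.42%) overlapped at least 1 base of a promoter window of the kind printed above, against 3.17% of lost and 29.4% of kept regions. Of the 362 windows they overlapped, 69 (19.1%, 95% Wilson interval 15.3 to 23.4) held AGATAA or TGATAA on either strand, against 44.0% of windows at lost regions, 9.09% at kept regions and 18.6% of all 32817 windows. The word CGGAAG, bound by ETS proteins, was in 12.7% of the windows at partly lost regions, against 7.28% at lost regions, 33.0% at kept regions and 16.9% of all. At the wide partly lost regions 10 of 31 windows (32.3%, 95% Wilson interval 18.6 to 49.9) held a GATA word, but these windows belonged to 25 genes and several share bases. The median GC content was 54.7% at partly lost regions, 51% at lost and 61.7% at kept regions, and its part in the word counts was not tested. For both words the share at partly lost regions lay between those at lost and at kept regions. The word TGTGGT, bound by RUNX proteins, did not follow that order, with 21.3% (95% Wilson interval 17.4 to 25.8) at partly lost, 19.9% at lost and 12.4% at kept regions and 16.8% of all windows. The E-box word CAGCTG was in 17.7% of windows at partly lost, 22.5% at lost and 14.4% at kept regions and in 16.3% of all.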

How the data were processed

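The authors deposited 1 list of peak positions per sample (chromosome, start and end, given in base pairs), with no score or count. The submitters' processing notes name MACS2 and mm10. For the aligner, read filters, duplicates and any shift of insertion sites, the sources used here give nothing. Starts were raised by 1 base to count from 1. Peaks sharing at least 1 bp were merged, and the peak width of a sample is the summed length of its peaks in a region. Genes and promoter windows came from RefSeq (GRCm38.p6). Each region was tied to protein-coding genes within 20 kb, and 267 of 268 list genes were matched. The merging was run on simulated lists of well-separated regions in which peaks of the same region always overlapped. Such lists check the code only and do not try split peaks or chained merges. Members and gene lists were chosen with earlier results of these data known. Named regions are the 10 widest, the 10 of at least 1000 bp with the lowest width ratio, and 8 at promoters. Named genes have the most members, the highest share, or were fixed transcription factors and up to 3 genes per list. Serpinb6b and Cbfa2t3 are exceptions. Computations used Python 3.11.15, numpy 2.4.6, pandas 2.3.3, scipy 1.17.1 and matplotlib 3.10.9. Wilson intervals (95%) cover counting error only. Sequence features outside promoter windows were not analysed here.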

Additional observations from a re-analysis of the deposited data

How the results depend on the processing

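The number of partly lost regions was 4512 to 4930 without a knockout sample, where the rule narrows to exactly 1 of the 2 others. Without a wild-type sample, where the rule asks for a peak in only the 2 others, it was 7806 to 8439. It was 3225 with the widest 50% of peaks, 3427 with equal list lengths and 3411 with regions of at least 400 bp. Under these changed rules, the partly lost share was 9.72% to 10.6% without a knockout sample and 15.8% to 16.8% without a wild-type sample. Of the regions in all 3 wild-type samples, it was 13.9% with the widest 50% of peaks and 9.63% with equal lengths. It was 19.7% where peaks had to cover 50% of a region, 15.9% with 500 bp windows and 9.34% from 400 bp. The median wild-type width ran from 314 to 329 bp without single samples, and was 554, 398, 347 and 409 bp with the widest 50%, equal lengths, 50% cover and regions from 400 bp. The width ratio ran from 0.786 to 0.831 without single samples, and was 0.921, 0.721 and 0.694 with the widest 50%, equal lengths and regions from 400 bp. The share at gene ends ran from 8.75% to 9.63% without single samples, and was 17.1%, 11.2%, 13.1%, 10.4% and 11.4% with the widest 50%, equal lengths, 50% cover, 500 bp windows and regions from 400 bp, and 5.87% and 17.6% with gene ends of 500 bp and 2.5 kb. The share inside genes ran from 56.3% to 58.5% without single samples, and was 63.0%, 59.6% and 59.6% with the widest 50%, 50% cover and regions from 400 bp. The cause of these shifts was not tested. Windows of 500 bp gave no widths. Of 255 shares of lists under other settings, 37 moved outside the interval of the value given in the report. No paired analysis was possible because the results come from no test. Read depth is unknown, and an absent peak is not evidence of closed chromatin.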
